A study of Mus musculus with 18 samples.

Results

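Thymocytes that carry the OT2 or the OT1 T cell receptor transgene were compared in host mice without the MHC class that selects them. The comparison covers 414 of the 1331 cells in the deposited matrices, of which 108 came from the OT2 mouse and 306 from the OT1 mouse. Each cell was placed by the hashtag it carries, an antibody with a DNA barcode that was used to stain the cells of each mouse before pooling. Both mice are marrow chimeras sampled at 14 weeks of age, 6 weeks after transplant, and both are labelled female. Each had received 30% donor marrow from a transgenic CD45.1.2 line and 70% competitor marrow that carries CD45.1 alone (B6.CD45.1). The OT2 donor line went into a host without MHC class II (MHCII -/-), and the OT1 donor line into a host without B2m (B2m -/-). For the OT2 host the treatment label and the design text name MHC class II, while 2 comment labels name B2m, and the former were followed. The hosts keep their own thymic stroma, and the sort takes the donor cells. Both suspensions came from thymus dissociated by mechanical force only. They were sorted for low CD44, CD45.1.2 and the receptor segments Va2 and Vb5, which both transgenic receptors use. The 4 other mice of the study hold the same 2 lines in wild-type hosts (PosSelected) and in hosts with an ovalbumin transgene under an insulin promoter (RIPmOVA, NegSelected). There was 1 mouse a side, so no test was possible. Receptor, donor line, host genotype and mouse cannot be told apart, and all intervals below are 95% intervals that cover counting error only.

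A thymocyte starts without either coreceptor (double negative, CD4-CD8-), gains both (double positive, CD4+CD8+), and keeps 1 of them once its αβ receptor has recognised an MHC molecule. OT1 recognises an ovalbumin peptide on MHC class I and OT2 one on MHC class II, and class I needs B2m to reach the cell surface. The stroma of each host therefore lacks the selecting MHC class. The deficiency is named for the hosts and not for the donor or competitor marrow. Cells that cannot be selected are known to stop as double positives, in which the recombinase genes stay on. In receptor transgenic mice the αβ receptor is known to appear early, already in double negative cells, some of which then take on features of the γδ lineage.

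The barcodes that define the comparison are shown because every value below rests on them. They are 15 bases long, printed 5′ to 3′, and capitals mark the bases at which the 2 members of a pair differ. The hashtags of the 2 mice differ at 11 bases, and the closest pair among the 6 hashtags of the study differs at 6.
HT21, OT2 NoSelection: CTTtAGTTcGTtGtG
HT7, OT1 NoSelection: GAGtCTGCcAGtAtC
The antibodies that gate the coreceptors differ at 12 bases.
CD4 antibody: AacAAgACCCTTGAG
CD8A antibody: TacCCgTAATAGCGT

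The OT2 cells held 525843 RNA UMIs (unique molecular identifiers, 1 per captured RNA molecule), with a median of 3022 per cell. The OT1 cells held 1867488, with a median of 4733. Median mitochondrial shares were 1.70% and 1.17%, and no barcode was shared between mice. The labelled cell type was checked first. The CD3 and proximal signalling list was measured in full in both mice, 13 of 13 genes, with none at least 2-fold apart over all cells. Of 12 myeloid and dendritic cell markers, 8 were at 0 in OT2 and 7 in OT1, with summed levels of 129 and 148 CPM (UMIs of a gene, or of an antibody, scaled to a total of 1000000 in the mouse or gate). B cell markers summed to 327 and 378 CPM, most of it Ighm (289 and 348), and erythroid markers to 0 and 3.21. A part of these cells in any difference below was not tested. B2m RNA was at 873 CPM in the OT1 donor cells, whose host lacks B2m. Of 11 measured MHC class I genes, 0 were at least 2-fold higher in OT2 and 0 lower, with a median log2 ratio of -0.13.

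The OT2 cells from the host without MHC class II were double positive far more often than the OT1 cells from the host without B2m. With thresholds on CD4 and CD8A antibody counts set over all cells of the series, 32 of 108 OT2 cells were CD4+CD8+ (29.6%, 21.2 to 39.2%) and 9 of 306 OT1 cells (2.94%, 1.35 to 5.51%). The difference was 26.7 percentage points (18.5 to 36.0). Cells without either coreceptor made up 55 OT2 cells (50.9%, 41.1 to 60.7%) and 251 OT1 cells (82.0%, 77.3 to 86.2%), a difference of -31.1 points (-41.2 to -20.7). The remaining gates were small and their intervals included no difference. CD4+CD8- cells were 7 (6.48%) and 10 (3.27%), and CD4-CD8+ cells 14 (13%) and 36 (11.8%). Double positive OT2 cells were shallow, with a median of 1845 RNA UMIs against 5577 in double negative OT2 cells and 4787 in double negative OT1 cells. When the antibody counts were first scaled per cell, 44 OT2 cells (40.7%) and 20 OT1 cells (6.54%) were CD4+CD8+, and the CD4-CD8+ share of OT2 went down to 3 cells (2.78%). Unscaled, CD4+CD8+ cells in the antigen hosts were 60 of 177 for OT2 (33.9%) and 15 of 204 for OT1 (7.35%). In the wild-type hosts they were 22 of 254 (8.66%) and 33 of 282 (11.7%). A part of the missing MHC class in these shares was not tested.

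**Figure D1:**
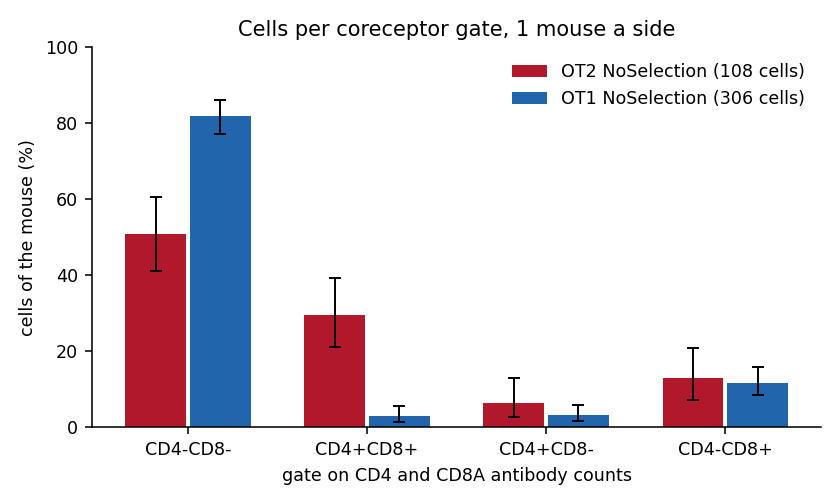
Share of each mouse's cells (y axis, percent) in the 4 gates on CD4 and CD8A antibody counts (x axis), for 108 OT2 and 306 OT1 cells; bars are shares and whiskers exact 95% intervals for counting error. The OT2 mouse holds 29.6% CD4+CD8+ cells and the OT1 mouse 2.94%, while 50.9% and 82.0% of the cells have neither coreceptor.

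The β chain segments set the 2 lines apart, and both were found within the OT2 mouse. Trbv12-1 and Trbv12-2 are both V segments of the Vb5 family to which the sort antibody binds. They are close copies, so a read may have been counted for the wrong one. In the OT1 mouse 5220 UMIs fell on Trbv12-1 and 48 on Trbv12-2, and 284 of 306 cells (92.8%) had at least 2 UMIs of Trbv12-1 and fewer than 2 of Trbv12-2. In the OT2 mouse 334 UMIs fell on Trbv12-1 and 525 on Trbv12-2. There 37 of 108 cells had Trbv12-2 alone at 2 or more UMIs, 22 had Trbv12-1 alone, 3 had both and 46 had neither. The share of cells with Trbv12-1 alone was 20.4% (13.2 to 29.2%) in this mouse, 3.54% (1.63 to 6.62%) in the OT2 wild-type host and 5.65% (2.74 to 10.1%) in the OT2 antigen host. Of the 22 cells, 19 were CD4-CD8-. Of 32 double positive OT2 cells, 1 had any Trbv12-1.

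The OT2 cells with Trbv12-1 carried the genes that mark the OT2 mice. Among the 22 with Trbv12-1 alone, Xist was found in 18 and Rnf43 in 15, whereas 7 and 5 of 306 OT1 cells had a UMI of these genes. In the CD4-CD8- gate, the 22 OT2 cells with at least 2 Trbv12-1 UMIs had a median of 7653 RNA UMIs and supplied 52.9% of all RNA UMIs of the OT2 cells there. The other 33 cells had a median of 4318. All 22 had Trgv2, a γ chain V segment, which 22 of the other 33 and 19 of 251 OT1 cells in the gate had. Since these cells weigh this much, list medians and the values of main genes are also given without the 25 OT2 cells with at least 2 Trbv12-1 UMIs. What these cells are was not tested.

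**Figure D2:**
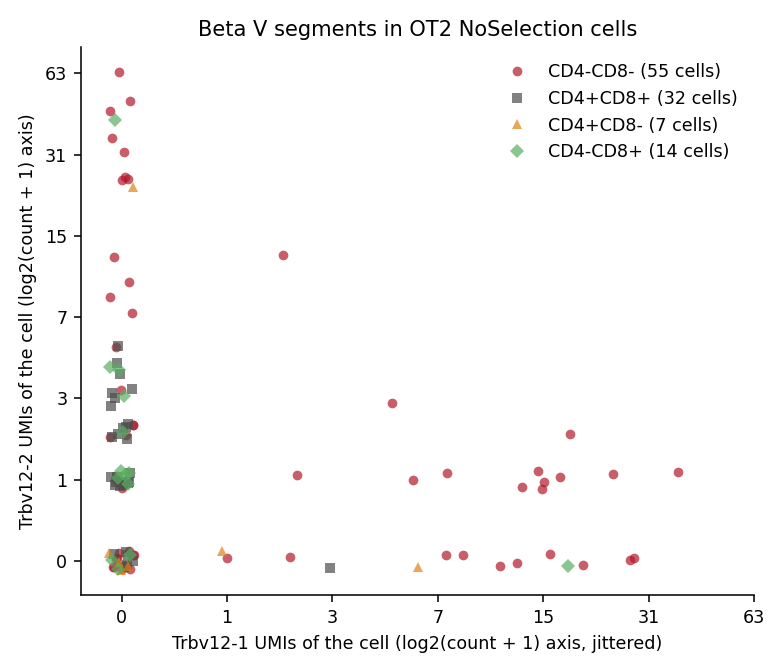
UMIs of Trbv12-1 (x axis) and Trbv12-2 (y axis) in each of the 108 OT2 cells, on log2(count + 1) axes with a small jitter; symbols give the coreceptor gate. The cells lie along the axes, most CD4+CD8+ cells (squares) have Trbv12-2 or neither, and the cells with Trbv12-1 are nearly all CD4-CD8- (circles).

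Over all cells, 6659 genes had a mean of at least 20 CPM in the 2 mice. Of these, 184 (2.76%) were at least 2-fold higher in OT2 and 140 (2.1%) at least 2-fold lower, and the median log2 ratio over all measured genes was 0.05. Which side is larger depended on the scaling, since TMM factors and RLE size factors each gave 140 higher and 173 lower. Of the genes with at least 50 UMIs over both mice, leaving out receptor segments, mitochondrial and unnamed genes, 35 higher and 23 lower ones had an interval that lay beyond 2-fold in full. A sum over cells does not tell fewer cells of a kind from less RNA per cell. Without the OT2 cells with Trbv12-1, 366 of 6718 measured genes were higher and 213 lower. List counts over all cells without these OT2 cells are to be read beside these totals. The 83 OT2 cells left hold fewer UMIs, so counting error is wider and these counts are not at equal depth with the 184 and 140.

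Genes of recombination and of the double positive stage were higher in OT2. Rag1, a subunit of the recombinase that assembles receptor genes, was at 280 CPM in OT2 (236 to 329) and 4.82 in OT1 (2.20 to 9.15), a 58-fold difference (29.7 to 129). Rag2, its partner, was at 59.0 and 4.28. Of 15 genes in the preselection double positive list 13 were measured, 8 of them at least 2-fold higher in OT2 and 0 lower, with a median log2 ratio of 1.39. Without the OT2 cells with Trbv12-1 the median was 1.89, with 10 of 14 higher, beside 366 of 6718 over all genes. The ratio of Rag1 was then 93.2. Ets2, a transcription factor, was at 169 and 31.1 CPM. Dntt, which adds bases at receptor joints, was near equal at 397 and 391.

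The same genes lay in the double positive cells of the OT2 mouse. A UMI of Rag1 was found in 28 of 32 CD4+CD8+ OT2 cells (87.5%, 71.0 to 96.5%), in 9 of 14 CD4-CD8+ cells and in 4 of 55 CD4-CD8- cells. In OT1 it was in 2 of 251 CD4-CD8- cells (0.797%) and 1 of 9 CD4+CD8+ cells. Rag1 was at 1546 CPM in the double positive OT2 cells and 64.5 in the double negative ones, and Rag2 at 374 and 8.06. The levels of Themis, a signalling protein of double positive cells, were 2245 and 553. Ptcra, the partner of the β chain in the pre-receptor, had 28 UMIs in 13 OT2 cells and 0 in OT1, at least 33.1-fold higher against a limit of 3 UMIs per mouse. Its UMIs were split evenly, with 13 in 9 CD4+CD8+ cells (212 CPM) and 13 in 3 CD4-CD8- cells (34.9 CPM). The 9 CD4+CD8+ cells of OT1 were too few for a comparison of this gate.

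Coreceptor genes followed the gates. Cd4 was at 141 CPM in OT2 and 23.6 in OT1, 5.97-fold (4.06 to 8.88). Cd8a was at 422 and 138, and Cd8b1 at 394 and 140. Within the CD4-CD8- gate Cd8a was at 94.0 and 75.8, a ratio of 1.24, and that of Cd8b1 was 1.29. These ratios were 1.95 (1.22 to 3.01) and 2.39 (1.58 to 3.52) without the OT2 cells with Trbv12-1. Cd4 had a ratio of 4.66 there, on 16 and 14 UMIs, which was 8.64 without the cells with Trbv12-1 and turned to 0.395 with gate thresholds 0.5 log2 units lower. Ly6d, a surface protein of early lymphoid cells, was at 365 and 61 CPM, Ntrk3, a neurotrophin receptor, at 79.9 and 14.5, and Hdgfl3 at 60.9 and 9.64. All 3 were also past 2-fold within the CD4-CD8- gate, with ratios of 8.05, 6.27 and 9.17.

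**Figure D3:**
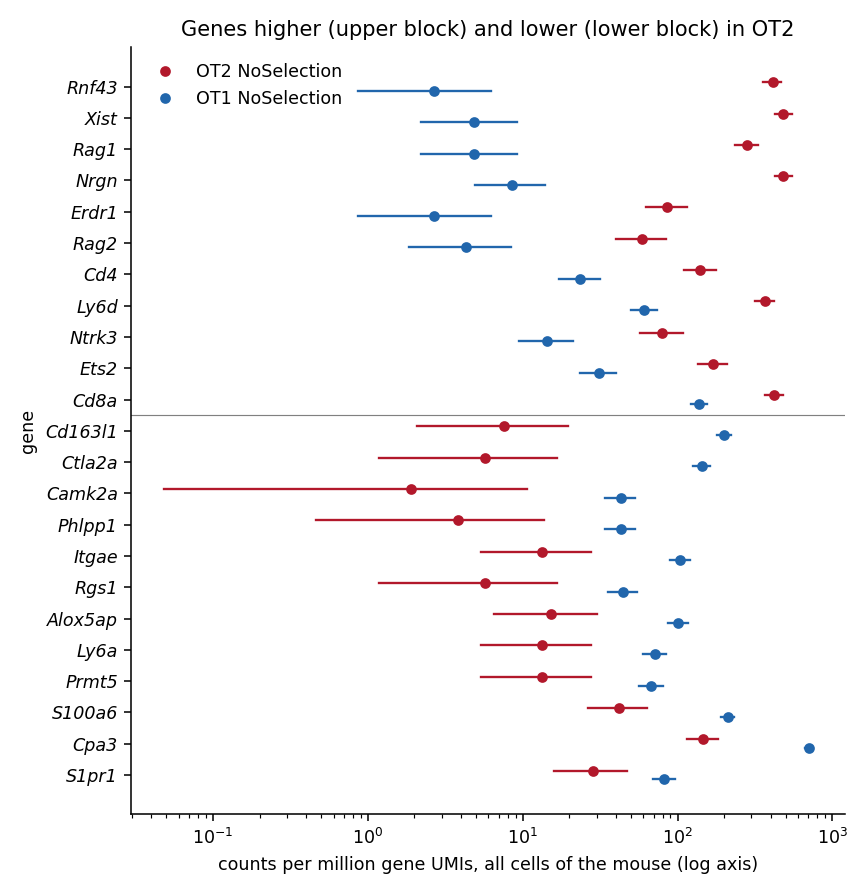
Level of 23 genes over all cells of each mouse (x axis, CPM, log axis); points are the values and lines exact 95% intervals for counting error. The upper block holds genes higher in OT2, from Rnf43 (411 against 2.68) to Cd8a (422 against 138), and the lower block genes lower in OT2, from Cd163l1 (7.61 against 199) to S1pr1 (28.5 against 81.9).

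Several of the genes that were lower in OT2 are known from γδ T cells or mast cells. In the list of mast-cell-like and CD8αα precursor genes, 3 of 6 measured were at least 2-fold lower (median log2 ratio -1.24). That list also holds Itgae, Pdcd1 and Ikzf2, and 2 of its 6 measured genes had higher values in OT2. The median of that list was -0.05, with 1 of 7 higher and 3 lower, without the OT2 cells with Trbv12-1. Cd163l1, a scavenger receptor known from γδ T cells, was at 7.61 CPM in OT2 (2.07 to 19.5) and 199 in OT1 (179 to 220). Its 371 OT1 UMIs came from 69 cells, and its 4 OT2 UMIs from 2. Ctla2a, an inhibitor of cysteine proteases, had 3 UMIs in OT2 and 267 in OT1, a ratio of 0.04 (0.0082 to 0.118). Cpa3, a carboxypeptidase first known from mast cells, was at 146 and 704. Itgae, the αE integrin chain of CD103, was at 13.3 and 104, with 4 and 90 cells. Alox5ap, which serves leukotriene synthesis, was at 15.2 and 101, and had 0 OT2 UMIs without the cells with Trbv12-1. Camk2a had 1 and 80 UMIs (ratio 0.04, 0.0011 to 0.255), Phlpp1 2 and 80 (0.09, 0.0106 to 0.331) and Rgs1 3 and 83 (0.13, 0.0259 to 0.388). These 3 encode a calmodulin-dependent kinase, a phosphatase of Akt and a regulator of G protein signalling. Prmt5, an arginine methyltransferase, was at 13.3 and 67.5.

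Most effector-like and egress genes were lower as well, 9 of 11 and 10 of 11 by any margin. S100a6, a calcium-binding protein of effector and memory cells, was at 41.8 CPM in OT2 (26.2 to 63.3) and 211 in OT1 (191 to 233). Of 11 measured genes in the mature and effector-like list 5 were at least 2-fold lower and 0 higher, with a median log2 ratio of -0.98. Crip1 was at 1824 and 4221, with 1071 in OT2 without the cells with Trbv12-1, and Itgb7, the β7 integrin chain, at 76.1 and 216. Ly6c2 had 2 UMIs against 109, with the 109 in 10 OT1 cells, and with antibody counts scaled per cell its ratio in the CD4-CD8- gate turned to 1.28. In the maturation and egress list 3 of 11 were lower and 0 higher. S1pr1, the receptor that guides egress, was at 28.5 and 81.9, and Ccr7, a chemokine receptor, at 81.8 and 165. Ly6a, which encodes Sca-1, was at 13.3 and 71.2, and Ifi27l2a at 22.8 and 85.7. Both belong to the interferon response list, of which 3 of 9 were lower and 0 higher (median log2 ratio -0.87). Without the OT2 cells with Trbv12-1 the medians were -1.20 for the effector-like list, -0.27 for the egress list and -0.56 for the interferon list, with 6, 2 and 2 genes lower. Not all members were lower then. In the effector-like list S100a11 had a ratio of 1.42 (1.15 to 1.75) and Anxa2 of 1.30 (1.06 to 1.58). Klf2 of the egress list was at 0.999.

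The mice differed in their gates, so the comparison was repeated among the 55 and 251 CD4-CD8- cells alone. Of 6638 measured genes 222 (3.34%) were at least 2-fold higher in OT2 and 233 (3.51%) lower, against 184 and 301 with TMM factors and 190 and 289 with RLE size factors. Of the 184 genes higher over all cells, 159 were measured in this gate and 113 were past 2-fold there too, which is 61.4% of the 184 and 50.9% of the 222. Of the 140 lower ones, 132 were measured and 105 past 2-fold, 75% of the 140 and 45.06% of the 233. The gate lists and the lists over all cells share these cells. Without the OT2 cells with Trbv12-1, on 33 cells with 175532 RNA UMIs, 467 of 6657 measured genes were higher and 354 lower. Counting error is wider at that depth, so these counts are not on a par with the 222 and 233.

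Within this gate the median of the double positive list was nearer to that of all genes, and the effector-like list stayed lower. Among CD4-CD8- cells the preselection list had a median log2 ratio of 0.33 over 12 genes, with 4 higher and 1 lower, beside 0.04 over all genes. The effector-like list had -0.88, with 5 of 12 lower, and -1.78 with 6 of 11 lower without the OT2 cells with Trbv12-1. The preselection list then had 0.63, with 5 of 12 higher. Over all genes of the gate 467 of 6657 were higher and 354 lower without those cells. S100a6 was at 29.5 CPM in double negative OT2 cells and 260 in OT1, and was found in 7 of 55 (12.7%, 5.27 to 24.5%) and 96 of 251 cells (38.2%, 32.2 to 44.6%). Cpa3 was found in 9 of 55 OT2 cells (16.4%, 7.77 to 28.8%) and 158 of 251 OT1 cells (62.9%, 56.6 to 68.9%). Cd163l1 was found in 2 and 66 of these cells, and Ctla2a in 2 and 72. In the 33 double negative OT2 cells without Trbv12-1 neither gene had a UMI, and Cpa3 was in 3.

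Double negative cells with γ and δ chain RNA were found in both mice, and the levels of γ segments differed. Trdc, the constant gene of the δ chain, was in 37 of 55 OT2 cells of the gate (67.3%, 53.3 to 79.3%) and 222 of 251 OT1 cells (88.4%, 83.8 to 92.1%), at 389 and 993 CPM. It was in 1 of 32 double positive OT2 cells, where the median depth was lower. Trgc1, a γ constant gene, was at 193 and 635 in the gate. For 3 V segments of the γ chain the values lay the other way. Trgv2 was at 768 CPM in OT2 (in 44 of 55 cells) and 45.5 in OT1 (in 19 of 251), a 16.9-fold difference (12.9 to 22.3). Trgv4 was at 293 and 10.5, 27.8-fold (16.3 to 50.3), in 31 and 9 cells. Trgv1 was at 255 and 95.6, and its shares of cells overlapped, with 26 of 55 (47.3%, 33.7 to 61.2%) and 90 of 251 (35.9%, 29.9 to 42.1%). Of 32 double positive OT2 cells 0 had Trgv2, with an interval that reaches up to 10.9%.

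Most measured genes of the γδ programme had lower values in OT2 over all cells, 10 against 2 with higher values. Of 12 measured genes 1 was at least 2-fold higher and 4 lower over all cells (median log2 ratio -0.42), and 1 and 3 in the CD4-CD8- gate (-0.32). When the OT2 cells with Trbv12-1 were left out, 6 were lower over all cells (-1.03) and 5 in the gate (-0.69), with 1 higher in each. Sox13, a transcription factor of the γδ lineage, was at 231 and 277 CPM in the gate, a ratio of 0.83 (0.65 to 1.05), and 0.657 (0.444 to 0.942) without those cells. Maf was at 134 and 162, a ratio of 0.828 and 0.597 without them, and Id3, which responds to receptor signals, at 594 and 407. The 1 higher gene in the gate was Zbtb16, which encodes PLZF, with 32 UMIs in 4 OT2 cells of the gate and 3 UMIs in 1 OT1 cell.

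Several of the highest double negative genes came from few OT2 cells. Nrgn, a calmodulin-binding protein, had 247 UMIs in 12 of 55 OT2 cells, of which 3 cells held 176, and 13 UMIs in 8 of 251 OT1 cells. Fcer1g, a signalling chain of Fc receptors, had 46 UMIs in 4 OT2 cells, 43 of them in 3, and 12 UMIs in 3 OT1 cells. Tnni1, a troponin subunit, had 37 UMIs in 5 cells against 2 UMIs in 2, and Tnfrsf9, which encodes 4-1BB, 28 UMIs in 6 cells against 5 in 4. The innate and cytotoxic list has 15 genes, of which 7 were measured in the gate. Of these, 4 were at least 2-fold higher and 0 lower, beside 3.34% and 3.51% of all genes in the gate. The median log2 ratio was 1.46, and 2.32 without the OT2 cells with Trbv12-1. Besides Fcer1g the list holds Il2rb, a chain of the IL-15 and IL-2 receptors, at 124 and 40.2 CPM. Its most abundant member, Gzma, was at 1222 and 942, 1.30-fold, and at 564 without the OT2 cells with Trbv12-1. Nkg7 was at 277 and 384. All 46 Fcer1g UMIs and 43 of 46 Il2rb UMIs lay in the cells without Trbv12-1.

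Genes that respond to receptor signals lay on both sides. Nr4a1, an early gene after receptor engagement, was at 137 CPM in double negative OT2 cells and 34.3 in OT1, 4.0-fold (2.66 to 6.00), in 11 and 10 cells. It was at 57.0 in the OT2 cells without Trbv12-1. Over all cells the early signal list had 2 of 9 genes higher and 1 lower. Egr1 was at 60.9 and 133, and Cd69 at 47.5 and 85.7. Both were lower still without the OT2 cells with Trbv12-1, with ratios of 0.212 and 0.293 against 0.456 and 0.555. Pdcd1, which encodes PD-1, was at 301 and 173 in the gate, and Ikzf2, which encodes Helios, at 406 and 352. Cd28 was at 177 and 65.9 and Lef1, a partner of β-catenin, at 808 and 402. Post-selection genes lay near 1 over all cells, with 1 of 13 higher, 2 lower and a median log2 ratio of -0.22. Itm2a was at 156 and 244 and Cd5 at 120 and 194.

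The values of cell cycle genes depended on which cells were counted. Over all cells 0 of 17 were at least 2-fold higher and 1 lower (median log2 ratio 0.16), and the median was -0.57 without the OT2 cells with Trbv12-1. In the CD4-CD8- gate 4 of 16 were higher, with a median of 0.82. Mki67, a marker of dividing cells, was at 236 and 81.1 there, on 8 OT2 and 17 OT1 cells, and 77 of the 88 OT2 UMIs lay in 3 cells. Of the OT1 UMIs of Mki67, 179 lay in 13 of 36 CD4-CD8+ cells, at 658 CPM. Without the OT2 cells with Trbv12-1 the median of the list in the CD4-CD8- gate was -0.02, with 2 higher and 1 lower. Without the cells above 12147 RNA UMIs, 8 OT2 and 27 OT1 cells, the ratio of Mki67 in the gate was 0.419 and that of Top2a 0.459, against 2.91 and 2.01 with them.

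**Figure D4:**
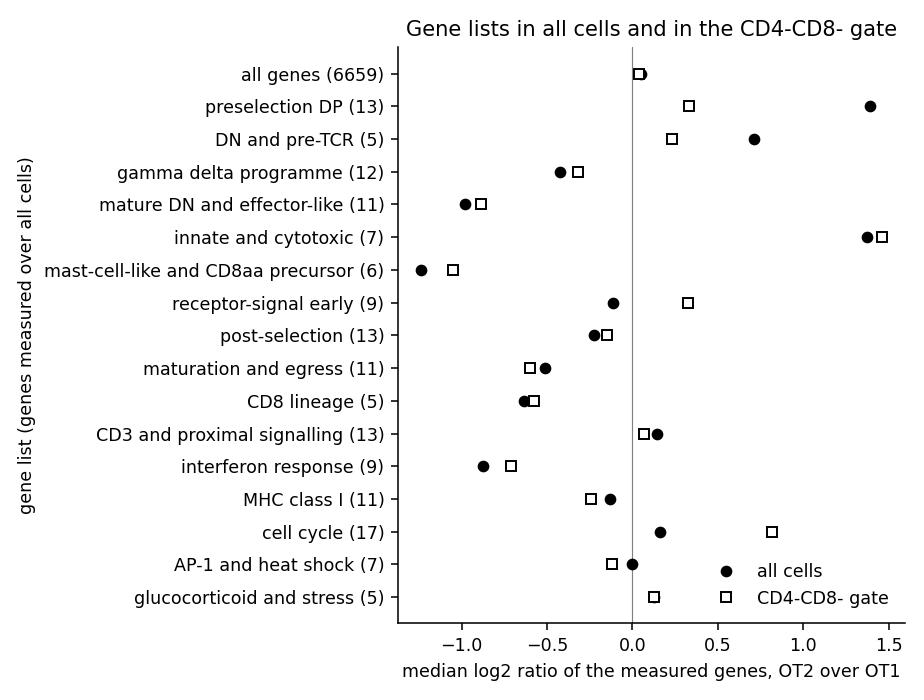
Median log2 ratio of OT2 over OT1 (x axis) for the gene lists with at least 5 measured genes (y axis, number measured over all cells in brackets), over all cells (filled circles) and in the CD4-CD8- gate (open squares). The preselection list goes from 1.39 to 0.33 between the 2 sets of cells, the cell cycle list from 0.16 to 0.82, and the effector-like list from -0.98 to -0.88.

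Some genes set the lines apart in every host. Rnf43, a ubiquitin ligase that removes Wnt receptors from the surface, was at 411 CPM in OT2 (358 to 469) and 2.68 in OT1, on 5 UMIs. It was found in 74 of 108 and 5 of 306 cells, in all gates of the OT2 mouse. In the wild-type hosts it was at 407 and 3.22, and in the antigen hosts at 567 and 3.13. Erdr1 was at 85.6 and 2.68 without selection, and its ratio was 41.3 and 113 in the other hosts. Xist, the RNA that silences an X chromosome in female cells, was at 483 (425 to 546) and 4.82 (2.20 to 9.15), with 254 and 9 UMIs. The other OT2 mice had 294 and 299 Xist UMIs and the other OT1 mice 4 and 1. All 6 mice are labelled female. The sorted cells come from the donor marrow, for which that label may not hold. The Y-linked genes Ddx3y, Eif2s3y, Uty and Kdm5d had 0 UMIs in both mice without selection. Sex of the donor marrow, insertion site of the transgene and host were not tested as sources of these differences.

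Other segments of the α and β loci were also higher in OT2. Trac, the α constant gene, was at 1537 CPM in OT2 and 132 in OT1, 11.7-fold (10.1 to 13.5), and was found in 100 of 108 and 127 of 306 cells. In double positive OT2 cells it was at 5760 and in double negative ones at 843. The β constant genes differed little, with Trbc1 at 666 and 684 and Trbc2 at 1234 and 1359. Trbv31 had 35 UMIs in 11 OT2 cells and 0 in OT1, at least 41.4-fold higher against a limit of 3 UMIs. It was at 260 in double positive and 2.69 in double negative OT2 cells. Trbv13-2 was at 76.1 and 31.1. The paired receptor sequencing libraries were not analysed here.

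Antibodies gave the same order for coreceptors and added integrins. The panel names 180 antibodies, and 86 lay above the highest of 9 isotype controls in at least 1 mouse. Of these, 7 (8.14%) were at least 2-fold higher in OT2 and 4 (4.65%) at least 2-fold lower. CD4 was at 34025 and 5825 CPM, with medians of 40 and 9 counts per cell. CD8B was at 47044 and 10935, and CD8A at 33314 and 9666. In the CD4-CD8- gate, which CD4 and CD8A define, CD8B had a ratio of 1.30. CD25, the α chain of the IL-2 receptor and a marker of early double negatives, was at 1596 and 435, with medians of 2 and 1 counts. The OT1 value lay under the highest isotype control (1284 in OT2 and 1190 in OT1), so no fold is given. Il2ra RNA had 18 and 10 UMIs. The ratio was 3.20 for CD155, an adhesion receptor, 2.27 for CD73, an ectoenzyme, and 2.04 for LY108, a SLAM family receptor.

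Antibodies to 2 integrin chains were among those lower in OT2. Integrin β7 (ITB7) was at 4679 CPM in OT2 and 24059 in OT1, with medians of 9.5 and 49 counts per cell. CD103 was at 3247 and 9619 and SCA1 at 755 and 2216, of which the OT2 value lay under the highest isotype control. The RNA of these 3 proteins lay on the same side, with ratios of 0.352 for Itgb7, 0.128 for Itgae and 0.187 for Ly6a. ITB7 and CD103 were also past 2-fold among CD4-CD8- cells, with ratios of 0.206 and 0.36. CD5, which tracks receptor signal strength, was at 33040 and 58147, a ratio of 0.568, and 0.725 in the gate. The ratio of GITR was 0.570 and in the gate 0.687, and that of PD-1 0.909 and 1.24.

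Antibodies to the receptor itself were within 2-fold. The cells were sorted for Va2 and Vb5, so these values are not independent of the sort. The level also differed by gate. In double negative and double positive OT2 cells TCRVA2 was at 12165 and 3729 CPM, and TCRB at 4943 and 1746. The ratio was 0.891 for TCRB, 0.907 for CD3, 0.733 for TCRVA2 and 0.656 for TCRVB5 over all cells, and 1.04, 0.969, 0.95 and 0.866 in the CD4-CD8- gate. The γδ receptor antibody was at 4052 and 3108, 1.30-fold, above the highest isotype control. It was at 3778 and 3055 in the double negative cells of the 2 mice. In double positive OT2 cells, of which 1 of 32 had Trdc, it was at a similar 3505. Whether this signal is receptor on the surface or background staining was not tested. CD44, against which the cells were sorted, had a ratio of 1.02 and CD69 1.04. Some antibodies were past 2-fold in the double negative cells and under 2-fold over all cells. ITA6, the α6 integrin, was at 70432 and 18666 (3.77-fold), FR4 at 8029 and 2246 (3.58), neuropilin 1 at 6564 and 2663 (2.46) and CD24, high on immature thymocytes, at 16502 and 6904 (2.39). Over all cells these 4 had ratios of 1.70, 1.78, 1.74 and 1.89.

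**Figure D5:**
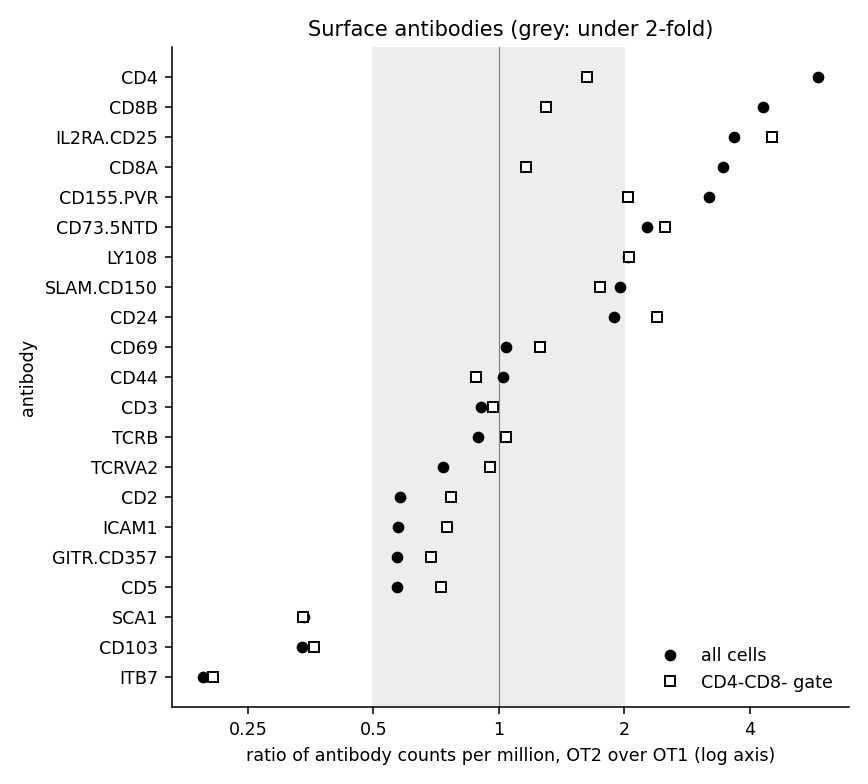
Ratio of antibody CPM, OT2 over OT1 (x axis, log axis), for the 8 highest antibodies, 7 of the lowest and 6 receptor and activation antibodies (y axis), over all cells (filled circles) and in the CD4-CD8- gate (open squares); grey marks ratios under 2-fold. CD4, CD8A and CD8B leave the upper end in the gate, while ITB7, CD103 and SCA1 stay below 0.5; the OT1 level of CD25 and the OT2 level of SCA1 lie under the highest isotype control.

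Part of these differences was also found between the lines in hosts that can select. Of the 184 genes higher in OT2 without selection, 37 (20.1%) were past 2-fold on the same side in the wild-type hosts, where 2.90% of all measured genes were, and 78 (42.4%) in the antigen hosts, against 4.13% of all. Past 2-fold in both were 32 genes, and 101 in neither. Of the 140 lower ones, 35 (25%) and 46 (32.9%) were past 2-fold again, against 7.0% and 4.87% of all, with 30 in both and 89 in neither. These hosts hold other mice, 1 a side, and other shares of the gates. Trdc lay on the same side, at ratios of 0.23 and 0.24, as did Trgv4 at 27.2 and 16.8 and Cd163l1 at 0.10 and 0.04. Rag1 was at 4.97 and 0.537 CPM in the wild-type hosts and 71.3 and 10.2 in the antigen hosts, under the 280 of the OT2 mouse without selection.

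The OT2 cells were shallower, so shares were also taken at equal depth. Each cell was thinned to 1500 RNA UMIs in a single random draw, which left 97 OT2 and 298 OT1 cells and left out 11 and 8. Rag1 was then found in 32.0% of OT2 cells (22.9 to 42.2%) and 0.671% of OT1 cells (0.0814 to 2.40%), and without thinning in 38.0% and 1.31%. Trdc was in 23.7% and 57.4% after thinning and in 41.7% and 81.4% before. S100a6 was in 2.06% (0.251 to 7.25%) and 16.8% (12.7 to 21.5%), against 8.33% and 31.4% before. Cd4 was in 23.7% and 4.03% and Cd8a in 40.2% and 9.40%, before thinning 38.9% and 7.19%, and 45.4% and 21.6%. Sox13, at 17.5% (10.6 to 26.6%) and 24.5% (19.7 to 29.8%), had overlapping intervals, with 28 of 108 and 138 of 306 cells before. Mki67 was in 6.19% and 5.37% of cells, before thinning 9.26% and 9.80%.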

How the data were processed

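Gene and antibody UMI counts per cell were used as deposited. The RNA and surface antibodies were read with 10x Genomics 5' chemistry and TotalSeq C, per the labels' protocols. Cell Ranger 8.0.1, Seurat (no version) and genome build mm10 are named in the submitters' processing notes. The hashtag tool and the filters on cells and doublets are not given in the sources used here, and no doublet caller was run. The receptor libraries were not analysed here, and some list members and 1 antibody are not reported here. The members and gene lists were chosen with earlier results of these data known.

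Counts were summed per mouse (all cells, or 1 gate) and scaled to CPM of gene or antibody UMIs. CD4 and CD8A gates were cut where a 2-component mixture over all 1331 cells divides. A gate was compared with at least 20 cells in each mouse. A gene counted as measured from 20 CPM (mean of both mice) and an antibody above the isotype controls. Ratios past 2-fold counted as higher or lower. Levels carry exact Poisson intervals, shares Clopper-Pearson intervals, differences of shares Newcombe intervals and ratios exact conditional binomial intervals, all at 95%, for counting error only; a count of 0 was read against 3 UMIs. With 1 mouse a side there are no p-values. The ratio script was tested on simulated data. Cells were also thinned to 1500 UMIs.

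Genes named are 32 anchors, the 10 highest and lowest with at least 50 UMIs and an interval beyond 2-fold, 8 a side in the gate with at least 30 UMIs, members of 23 lists (238 genes, 4 not in the file), receptor segments of at least 50 CPM and antibodies. Alternatives were TMM and RLE factors (edgeR 4.0.16, R 4.3.3), other minimums, folds and gate thresholds, per-cell means, and leaving out the deepest cells. Scaled antibody counts, a total without receptor, ribosomal and mitochondrial genes, and leaving out OT2 cells with Trbv12-1 were chosen after seeing the data. Python 3.11.15 was used with numpy 2.4.6, pandas 2.3.3, scipy 1.17.1, scikit-learn 1.9.0 and matplotlib 3.10.9.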

Additional observations from a re-analysis of the deposited data

Results flagged for a closer look

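These results were more than 2-fold apart in 1 direction without selection and more than 2-fold apart in the other direction in hosts that can select. The difference between hosts was not tested, each host pair holds other mice with 1 a side, and the coreceptor gates differ between them. Against the wild-type hosts, Cd8a RNA had an OT2 to OT1 ratio of 3.06 here and 0.462 there. The CD8A antibody was at 3.45 and 0.316, and the CD8B antibody at 4.30 and 0.361. Genes of maturation and egress lay the other way round, with Ccr7 at 0.494 here and 2.53 there and S1pr1 at 0.348 and 2.30. Ly6a RNA was at 0.187 and 7.06, and the SCA1 antibody to the same protein at 0.341 and 2.58, where the OT2 level here lay under the highest isotype control. Ly6c1 was at 0.225 and 4.39, Ifi27l2a at 0.266 and 2.33, and S100a6 at 0.198 and 2.25. Il2rb was at 2.72 here and 0.291 there. Against the antigen hosts, Ly6c2 was at 0.0652 here, with 2 OT2 UMIs, and 5.49 there on 38 and 15 UMIs. Ccl5 was at 2.59 here and 0.104 there, on 22 and 459 UMIs.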

How the results depend on the processing

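The counts of 184 higher and 140 lower genes over all cells became 52 and 49 with a minimum of 50 CPM, 1420 and 655 with no minimum, 499 and 297 with per-cell means, 285 and 223 without cells above the 95th percentile of RNA UMIs, 69 and 35 at a fold of 3, and 366 and 213 without OT2 cells with at least 2 Trbv12-1 UMIs. Scaling by TMM or RLE factors gave 140 and 173 over all cells, and 184 and 301 or 190 and 289 in the CD4-CD8- gate. The 222 and 233 of the CD4-CD8- gate became 64 and 67, 1615 and 785, and 507 and 360 under the first 3 of these settings, 340 and 335 without the deepest cells, and 467 and 354 without the Trbv12-1 cells. In the gate, Mki67 was at 0.419 and Top2a at 0.459 without the deepest cells, Rag2 at 0.789 and Cd4 at 0.395 with thresholds 0.5 log2 units lower, Ly6c2 at 1.28 with scaled antibody counts and Tk1 at 0.960 without the Trbv12-1 cells. The cause was not tested. CD4-CD8- cells made up 39.8% of OT2 without the Trbv12-1 cells, and 75.5% of OT1 with lower and 74.8% with scaled thresholds. Scaled thresholds gave 40.7% and 6.54% CD4+CD8+ cells. CD4-CD8+ cells were 5.56% of OT2 with higher and 2.78% with scaled thresholds, and 17% of OT1 with lower ones. Lower antibodies numbered 7 without the Trbv12-1 cells. With a minimum of 50 CPM, 28.8% and 51.9% of the higher and 36.7% and 49.0% of the lower genes were past 2-fold again in the wild-type and antigen hosts. Thinned to 1000 UMIs, OT1 shares were 48.5% for Trdc and 16.4% for Sox13. Of 1091 gene values over all cells under another setting, 932 moved by less than their counting interval, as did 1500 of 1634 in the gate and 250 of 344 for antibodies. The CD4+CD8+ gate was not compared between mice, nor were its alternatives run, since OT1 had 9 cells there. No paired analysis was possible because each side is 1 mouse, and no replicate could be left out. Depth limits genes of few UMIs and gates of few cells most. Settings that leave out cells leave fewer UMIs and wider counting error, so their counts of genes are not at equal depth with the main ones.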
